A study of Mus musculus with 6 samples.

Results

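Interferon-stimulated genes are the transcripts that cells switch on when an interferon binds its receptor. A named list of 39 of them was followed here, and all 39 were found by symbol among the 54309 genes of the deposited tables, each under 1 gene identifier. Members were taken by symbol, with no value in the rule, and were sorted into 8 roles: transcription factors (4 genes), IFIT RNA-binding proteins (4), the ISG15 modifier and its protease (2), the oligoadenylate synthase family (5), RNA and nucleic acid sensors (4), direct antiviral effectors (7), interferon-induced GTPases (6) and a mixed group of 7. The nerves were left sciatic nerves of C57BL/6 mice aged 6 to 8 weeks, exposed at mid-thigh without transection (sham surgery) and taken 24 h later. RNA was pooled from 2 mice for each sample, which gave 3 female pools and 3 male pools from 6 mice of each sex. All the mice had surgery, so the levels are those of sham-operated and not of naive nerve, and a pool of 2 mice hides the difference between its mice.

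Type I interferons signal through the receptor chains encoded by Ifnar1 and Ifnar2 to the kinases Jak1 and Tyk2. Stat2 and Irf9 then take part in a complex that binds interferon-stimulated response elements (ISRE), whereas signalling by interferon gamma acts through gamma-activated sites (GAS). Irf7 and Irf1 are themselves interferon-stimulated and feed back on the pathway. In peripheral nerve, Schwann cells, fibroblasts, endothelial cells and macrophages all carry interferon receptors, so a whole-nerve sample reads the sum of these cells.

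Promoters are shown here as a description of the members. Their part in the variation from pool to pool that is described below was not tested. RefSeq promoter windows on GRCm38.p6, from 250 bases before to 50 bases after an annotated start, were available for 29 of the 39 members. The letters GAAANNGAA, the core of an ISRE on either strand, occurred in 20 of the 29 members with a window (69.0%), and in 9.76% of the 27025 genes of the same table. The letters TTCNNNGAA, the core of a GAS on either strand, occurred in 9 of the 29 (31.0%), and in 9.55% of the 27025 genes. Both were present in 6 members and neither in 6, and the cores can share a GAA where they overlap. A match describes the letters only. The stretches below are shown because they carry the matches before the start, for 1 member of each role (the one of highest level with such a match), for Ifit1 beside Ifit3, and for Irf1 as the GAS case. They run 5′ to 3′ in the direction of the gene, with 20 bases on either side of the matches where these do not reach the start, and capitals mark GAAANNGAA on either strand or, in Irf1, TTCNNNGAA.
Stat2: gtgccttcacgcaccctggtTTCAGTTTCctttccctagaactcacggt
Ifit3: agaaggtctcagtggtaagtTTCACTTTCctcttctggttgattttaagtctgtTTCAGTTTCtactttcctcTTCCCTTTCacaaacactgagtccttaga
Ifit1: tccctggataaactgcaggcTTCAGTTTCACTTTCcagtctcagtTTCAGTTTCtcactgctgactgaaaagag
Isg15: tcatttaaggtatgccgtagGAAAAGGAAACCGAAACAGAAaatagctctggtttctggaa
Oas1a: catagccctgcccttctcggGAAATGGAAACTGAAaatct
Ifih1: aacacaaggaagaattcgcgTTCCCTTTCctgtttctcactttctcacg
Bst2: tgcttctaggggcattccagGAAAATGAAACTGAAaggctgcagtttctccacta
Irgm1: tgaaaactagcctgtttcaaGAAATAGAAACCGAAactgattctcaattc
Trim30a: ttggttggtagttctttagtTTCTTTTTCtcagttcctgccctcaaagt
Irf1: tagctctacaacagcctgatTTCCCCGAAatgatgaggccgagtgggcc
On GRCm38.p6 these lie at chr10:128270257-128270305 (plus strand), chr19:34583354-34583455 (plus), chr19:34640760-34640833 (plus), chr4:156200856-156200916 (minus), chr5:120907526-120907565 (minus), chr2:62646339-62646387 (minus), chr8:71537568-71537622 (minus), chr11:48871421-48871470 (minus), chr7:104465200-104465248 (minus) and chr11:53769904-53769952 (plus). The Ifit3 stretch holds 3 matches on the strand opposite to the gene, and the matching stretch of Ifit3b, at chr19:34607750-34607851, was identical over all 102 bases. Ifit1 and Isg15 also held 3 matches each, and in Isg15 they run into each other in 1 block. Oas1a held 2 overlapping matches, which begin 20 and 14 bases before the start, and Irgm1 held 2, which begin 30 and 24 bases before it.

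The libraries held 55949876 to 66285694 estimated read pairs in females and 59165914 to 78473057 in males. Xist, the RNA of the inactive X chromosome, was at 119.5 to 124 TPM (a level that is divided by transcript length and sums to the same total in each pool) in females and at 0.0245 to 0.557 TPM in males, so each pool matched its sex label. Myelinating Schwann cell markers summed to 34470 to 41920 TPM in females and 39750 to 43680 TPM in males, and none of the 9 was at 0 in every pool. Skeletal muscle markers summed to 2723 TPM in female pool 2 and to 15.2 to 189 TPM in the other 5 pools, and results that rest on female pool 2 are given with and without it below. The pools of a sex are separate animals, so the errors below are between pools.

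The members were well expressed in sham nerves of both sexes. All 39 passed the filter on low counts (a minimum of 0.5 CPM, the count scaled to library size, in 3 or more pools) that 16310 genes passed, and 37 lay above the median of those genes by mean TPM. The median member stood at percentile 84.7, and 11 members stood above percentile 90. Mean levels over the 6 pools ran from 11.3 TPM for Ifi44 to 2334 TPM for Ifitm3. The sum over the 39 genes was 7002, 6373 and 6845 TPM in female pools 1, 2 and 3, against 7858, 5985 and 8318 TPM in male pools 1, 2 and 3, which is 0.599% to 0.832% of all transcripts. Ifitm3 and Ifi27l2a made up about as much of this sum as the other 37 genes together, which summed to 3455, 2990 and 3074 TPM in the female pools, against 3915, 2628 and 4064 TPM in the male pools. In the order of both sums, male pool 3 was highest, male pool 1 second and male pool 2 lowest.

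**Figure D1:**
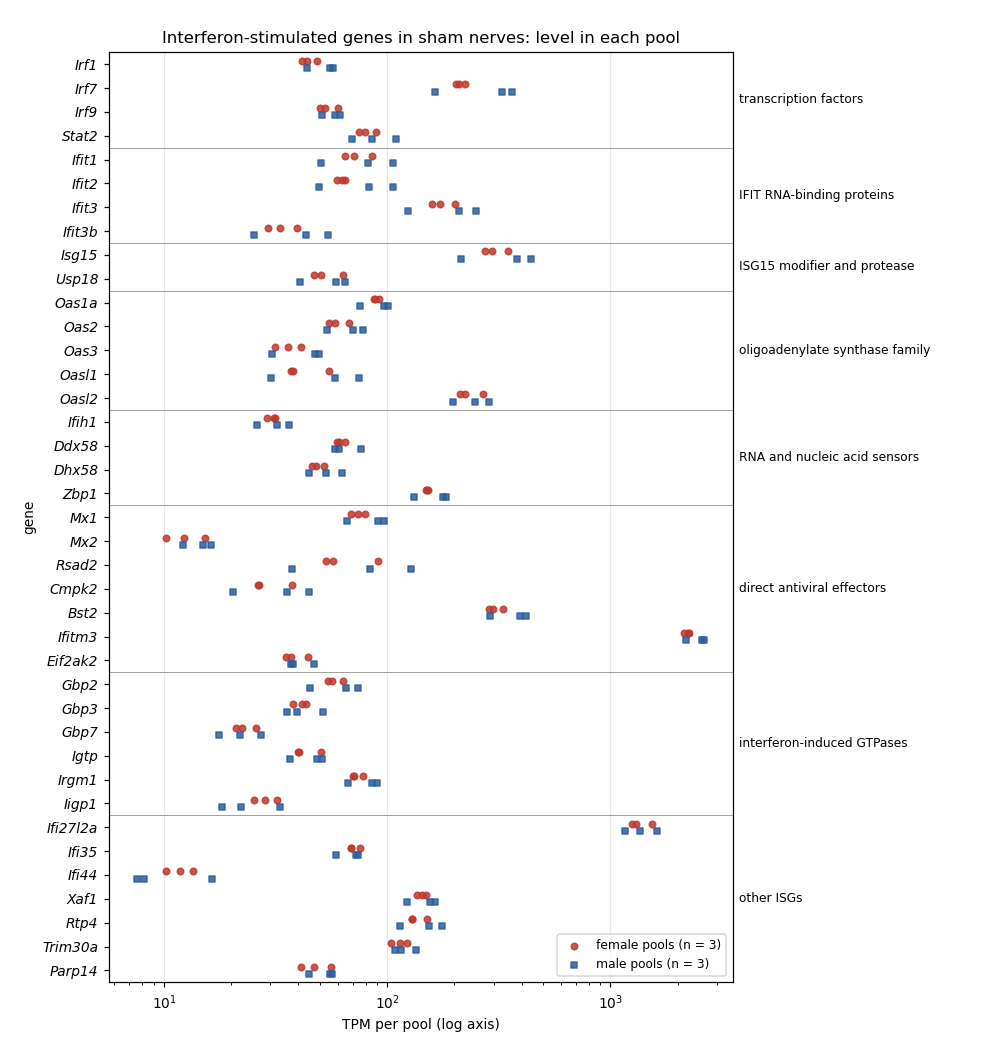
Level of each of the 39 interferon-stimulated genes in each pool, in TPM on a log axis, with 1 point a pool (circles, 3 female pools, and squares, 3 male pools) and genes grouped by role. Levels run from 7.59 TPM (Ifi44 in male pool 2) to 2633 TPM (Ifitm3 in male pool 3), and for most genes the male squares spread more widely than the female circles.

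Of the transcription factors, Irf7 had the highest level and the widest spread. In each sentence of this kind the values stand in the order of pools 1, 2 and 3. Irf7, which drives the amplifying phase of the type I interferon response, was at 211, 203 and 224 TPM in the female pools, against 328, 164 and 363 TPM in the male pools. The female values fell inside the male range, which spans male pool 2 below and male pools 1 and 3 above. Stat2 was at 89.4, 79.5 and 74.95 TPM in the female pools, against 109.8, 69.7 and 85.5 TPM in the male pools, and Irf1, which binds many promoters in response to interferon gamma, was at 48.4, 41.6 and 43.6 TPM in the female pools, against 55.6, 43.6 and 57.1 TPM in the male pools. Both repeated the order with male pool 1 or 3 highest, although for Irf1 the lowest pool was female pool 2. The leading coding transcript of Stat2 was at 53.3 TPM in male pool 1 and 53.4 TPM in male pool 3. Irf9, the DNA-binding partner of Stat2, averaged 54.2 TPM in females and 57.0 TPM in males. The log2 fold change, female over male, was -0.39 (SE 0.33) for Irf7, -0.22 (SE 0.14) for Irf1, -0.18 (SE 0.18) for Stat2 and -0.02 (SE 0.10) for Irf9, and the smallest adjusted p among them was 0.838 (Irf1, edgeR's quasi-likelihood test with Benjamini-Hochberg adjustment over all 16310 genes).

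The IFIT genes, whose products bind foreign RNA through its unusual ends, had the widest median ratio of highest to lowest pool of the 8 roles. The 4 genes lie in 1 stretch of chromosome 19, between bases 34527932 and 34632174 of GRCm39. Ifit3 was at 201, 158 and 172 TPM in the female pools, against 209, 124 and 251 TPM in the male pools. Ifit1 was at 85.3, 64.6 and 70.7 TPM in the female pools, against 82.1, 50.4 and 107 TPM in the male pools, and Ifit2 at 64.9, 59.5 and 62.5 TPM in the female pools, against 82.8, 49.7 and 106 TPM in the male pools. Ifit3b, the near copy of Ifit3, was at 39.5, 29.3 and 33.0 TPM in the female pools, against 43.1, 25.2 and 54.4 TPM in the male pools. For all 4 genes male pool 3 was highest, male pool 2 lowest and the 3 female pools lay between them. The ratio of the highest to the lowest pool was 2.12 to 2.27 on the CPM scale, with a median of 2.18, against a median of 1.27 over all genes tested. The fold changes between the sexes were small beside this spread: -0.17 (SE 0.29) for Ifit3, -0.17 (SE 0.29) for Ifit1, -0.41 (SE 0.31) for Ifit2 and -0.31 (SE 0.33) for Ifit3b on the log2 scale. The adjusted p-values from edgeR were 0.864 to 0.939. Reads shared by Ifit3 and Ifit3b were divided by the authors' software, so the split between these 2 genes is uncertain.

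Isg15, a ubiquitin-like modifier that is joined to newly made proteins, was at 348, 276 and 296 TPM in the female pools, against 380.4, 213 and 439 TPM in the male pools. Usp18, the protease that removes it and also damps the receptor, was at 63.7, 46.8 and 50.3 TPM in the female pools, against 59.2, 40.5 and 64.5 TPM in the male pools. Male pool 2 was the lowest and male pool 3 the highest for both, and female pool 2 was the lowest female pool. The log2 fold change was -0.17 (SE 0.31) for Isg15 and -0.06 (SE 0.23) for Usp18, with adjusted p-values of 0.944 and 0.978 from edgeR.

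The oligoadenylate synthases make short adenosine chains that activate RNase L, which cuts RNA. Oasl2 was at 268, 223 and 212 TPM in the female pools, against 284, 196 and 248 TPM in the male pools, and Oas1a at 91.8, 86.9 and 88.3 TPM in the female pools, against 96.5, 75.4 and 101 TPM in the male pools. The 3 female pools of Oas1a lay within 5 TPM of each other, and male pool 2 was the lowest. Oas2 was at 67.6, 58.2 and 54.6 TPM in the female pools, against 69.9, 53.9 and 78.1 TPM in the male pools. Of its level in male pool 3, 26.5 TPM was on a retained-intron transcript that was at 3.07 to 4.22 TPM in the other pools. Its leading coding transcript was at 39.9 TPM in male pool 3 and 52.8 TPM in male pool 1. Oas3 was at 40.9, 35.8 and 31.3 TPM in the female pools, against 49.6, 30.5 and 47.5 TPM in the male pools. Oasl1, which in mice restrains the translation of Irf7, ranged most widely in this family, with 54.9, 37.2 and 37.9 TPM in the female pools, against 58.3, 30.3 and 74.9 TPM in the male pools. All 5 genes were lowest in male pool 2, and the female values overlapped the male ones for each. The log2 fold changes were -0.02 (SE 0.12) for Oas1a, -0.08 (SE 0.14) for Oasl2, -0.10 (SE 0.14) for Oas2, -0.21 (SE 0.21) for Oas3 and -0.27 (SE 0.41) for Oasl1, with adjusted p-values of 0.892 to 0.991 from edgeR. Oas1a has a close paralog in Oas1g, which averaged 40.9 TPM, and the division of reads between them is uncertain.

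The sensors of foreign nucleic acid were lowest in male pool 2 and highest in male pool 1 or 3. Zbp1, which binds nucleic acids in the Z form and can trigger cell death, was at 153, 150.4 and 149.7 TPM in the female pools, against 178, 132 and 183 TPM in the male pools. Its 3 female pools were close together, below male pools 1 and 3 and above male pool 2. Ddx58 (RIG-I) was at 64.8, 61.0 and 59.5 TPM in the female pools, against 76.3, 58.3 and 61.0 TPM in the male pools, and Ifih1 (MDA5) at 31.1, 31.6 and 28.9 TPM in the female pools, against 36.2, 26.1 and 32.2 TPM in the male pools. Dhx58 (LGP2), a relative that tunes both, was at 52.0, 47.9 and 46.2 TPM in the female pools, against 62.9, 44.8 and 53.3 TPM in the male pools. Male pool 1, not male pool 3, was the highest for Ddx58, Ifih1 and Dhx58. For Ddx58 male pool 3 was below female pool 1 in TPM but above it in CPM (125.7 against 119.7 CPM). The log2 fold changes lay between -0.13 and -0.10, with standard errors of 0.11 to 0.15 and adjusted p-values of 0.887 to 0.911 from edgeR.

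The direct antiviral effectors held both the most abundant and the most variable member. Ifitm3, which blocks the fusion of viruses with endosomes, was at 2239, 2128 and 2229 TPM in the female pools, against 2585, 2192 and 2633 TPM in the male pools. It was the steadiest of the group across the male pools after Eif2ak2, with an SD in log2 CPM of 0.046 over the female pools and 0.19 over the male pools. Rsad2 (viperin), which makes a chain-terminating nucleotide, was at 90.6, 53.1 and 56.9 TPM in the female pools, against 83.5, 37.3 and 128 TPM in the male pools. Its TPM in male pool 3 was 3.43 times that in male pool 2, the widest ratio of the 39 members, and female pool 1 stood above both other female pools. Cmpk2, a nucleotide kinase encoded next to Rsad2 on chromosome 12, was at 37.5, 26.3 and 26.7 TPM in the female pools, against 35.5, 20.4 and 44.6 TPM in the male pools, in the same order of pools as Rsad2. Bst2 (tetherin), which holds budding virus at the cell surface, was at 299, 286 and 332 TPM in the female pools, against 393, 290.1 and 418 TPM in the male pools. Mx1, a dynamin-like GTPase, was at 79.5, 73.8 and 68.9 TPM in the female pools, against 97.2, 65.9 and 90.8 TPM in the male pools, and its relative Mx2 averaged 12.6 TPM in females and 14.5 TPM in males. Male pools 1 and 3 were the 2 highest for Bst2 and Mx1. The log2 fold change was -0.33 (SE 0.20) for Mx1, -0.21 (SE 0.17) for Bst2, -0.15 (SE 0.11) for Ifitm3 and -0.36 (SE 0.54) for Rsad2, with adjusted p-values of 0.838 to 0.932 from edgeR.

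Eif2ak2 (PKR), the kinase that stops translation when it binds double-stranded RNA, was the one member whose pools did not overlap between the sexes. On the CPM scale, with TMM factors, it was at 86.2, 81.6 and 83.4 CPM in the female pools, against 103, 86.7 and 94.3 CPM in the male pools. Every female pool was below every male pool on this scale, with female pool 1 just under male pool 2. In TPM, which depends on the transcripts that carry the reads, it was at 44.1, 37.0 and 35.3 TPM in the female pools, against 46.8, 37.9 and 37.0 TPM in the male pools, and there the sexes overlapped. The log2 fold change was -0.18 (SE 0.088), with an adjusted p of 0.806 from edgeR, so it did not pass the test.

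The interferon-induced GTPases, which attack the vacuoles of intracellular microbes, were the least uniform role group. Irgm1 was at 78.2, 70.6 and 71.0 TPM in the female pools, against 85.3, 66.9 and 89.8 TPM in the male pools, and Gbp2 at 63.7, 54.5 and 56.6 TPM in the female pools, against 74.2, 45.03 and 65.2 TPM in the male pools. Igtp (Irgm3) averaged 43.6 TPM in females and 45.5 TPM in males, and Gbp3 averaged 41.0 TPM in females and 42.2 TPM in males. These 4 were lowest in male pool 2. Iigp1 (Irga6) and Gbp7 departed from this: Iigp1 was at 28.4, 25.3 and 32.1 TPM in the female pools, against 33.0, 22.2 and 18.1 TPM in the male pools, and Gbp7 at 25.9, 22.3 and 21.1 TPM in the female pools, against 27.1, 22.0 and 17.7 TPM in the male pools. Both were lowest in male pool 3, the pool in which most other members were highest. Iigp1 also had the largest positive log2 fold change of the 39 members, 0.17 (SE 0.25), beside -0.16 (SE 0.13) for Irgm1 and -0.11 (SE 0.18) for Gbp2, and the adjusted p-values of these 3 were 0.869 to 0.940 from edgeR.

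Ifi27l2a, a small hydrophobic protein, had the second highest level of the 39 members, with 1308, 1255 and 1542 TPM in the female pools, against 1358, 1166 and 1621 TPM in the male pools. Xaf1, an antagonist of the caspase inhibitor XIAP, was at 149.8, 143 and 137 TPM in the female pools, against 163, 122 and 156 TPM in the male pools. Trim30a, a TRIM-family ubiquitin ligase, was at 122, 114 and 104 TPM in the female pools, against 135, 108 and 115 TPM in the male pools, and Parp14, an ADP-ribosyltransferase, at 55.9, 46.9 and 41.1 TPM in the female pools, against 56.6, 44.8 and 55.5 TPM in the male pools. The female and male ranges overlapped for all 4, and Ifi27l2a was highest in male pool 3 and next highest in female pool 3. Rtp4 averaged 136 TPM in females and 148 TPM in males, and Ifi35 averaged 71.1 TPM in females and 68.5 TPM in males. Ifi44, the lowest member, was at 11.8, 10.2 and 13.5 TPM in the female pools, against 16.4, 7.59 and 8.11 TPM in the male pools, with male pool 1 highest and both other male pools lowest. The log2 fold change was -0.17 (SE 0.098) for Trim30a, -0.17 (SE 0.13) for Parp14, -0.03 (SE 0.097) for Xaf1 and -0.01 (SE 0.15) for Ifi27l2a, with adjusted p-values of 0.832 to 0.995 from edgeR.

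**Figure D2:**
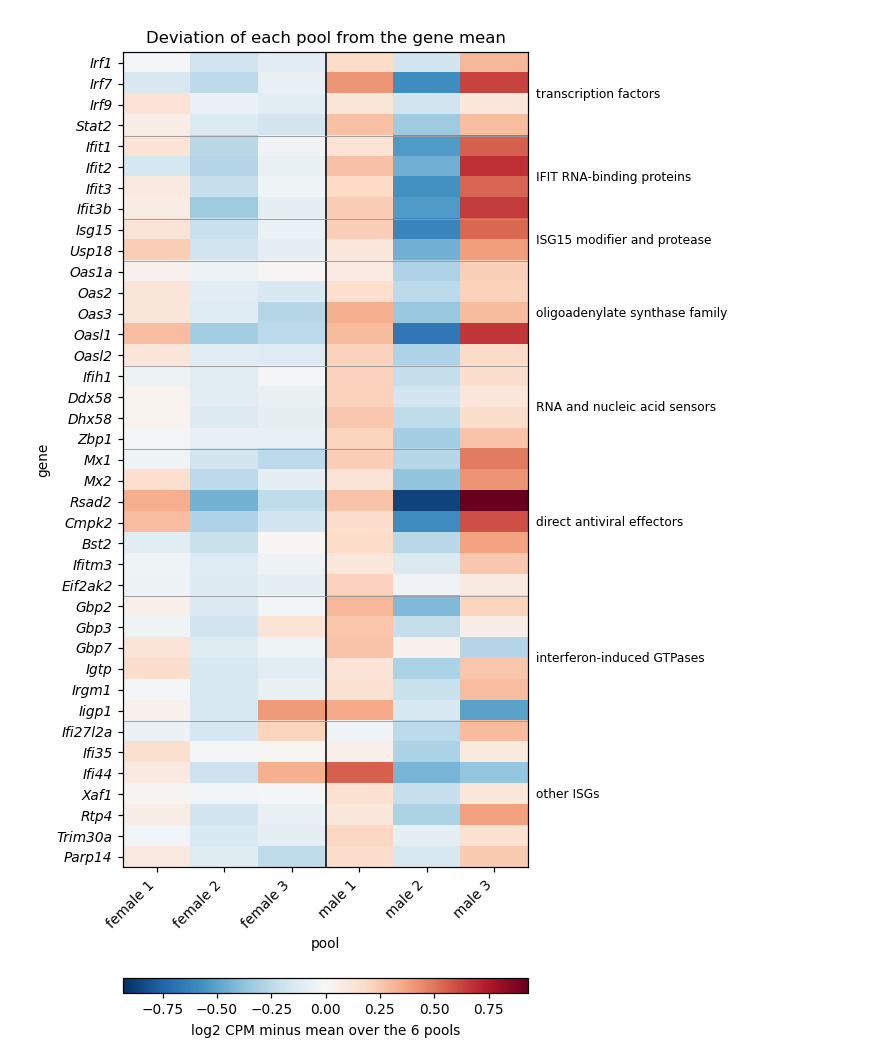
Deviation of each pool from the mean of the 6 pools, in log2 CPM with TMM factors, for the 39 genes (rows, by role) in the 3 female and 3 male pools (columns), where red is above and blue below the mean. Male pools 1 and 3 are red and male pool 2 blue in most rows, while Gbp7, Iigp1 and Ifi44 are blue in male pool 3.

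Most members had male pools at both extremes. For each gene the deviation of a pool was taken as its log2 CPM minus the mean over the 6 pools. The median deviation of the 39 members was 0.06, -0.15 and -0.07 in female pools 1, 2 and 3, against 0.21, -0.29 and 0.26 in male pools 1, 2 and 3. Over all genes tested the 6 medians lay between -0.0076 and 0.0064, near 0 by the scaling, so the deviations are relative to the bulk of the genes in each pool. Male pool 3 was the highest pool for 24 members (61.5%, against 21.6% of all genes tested) and male pool 1 for 12 (30.8%, against 12.1%). Male pool 2 was the lowest pool for 33 members (84.6%, against 16.5% of all genes). Male pool 2 lowest with male pool 1 or 3 highest held for 31 members (79.5%, against 5.61% of all genes). On the TPM scale male pool 3 was highest for 21, male pool 1 for 17, and male pool 2 lowest for 29.

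Within each sex the order was also shared. Male pool 1 exceeded male pool 2 for all 39 members, and male pool 3 exceeded male pool 2 for 37, the exceptions being Gbp7 and Iigp1. The median log2 difference of male pool 3 over male pool 2 was 0.54 over the members, 1.12 over the IFIT genes and 0.75 over the direct antiviral effectors, against 0.00066 over all genes. Among the female pools, pool 2, the one with muscle transcripts, was the lowest for 32 members (82.1%, against 29.7% of all genes) and pool 1 the highest for 31 (79.5%, against 37.7%). The SD of log2 CPM was larger over the male than over the female pools for all 39 members, against 52.2% of all genes. The median SD of the members was 0.12 over the female pools and 0.32 over the male pools, beside 0.11 over both for all genes. Without male pool 2 the count was 24 of 39, and without any 1 of the other pools it was 37 to 39, so this count depended on male pool 2.

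**Figure D3:**
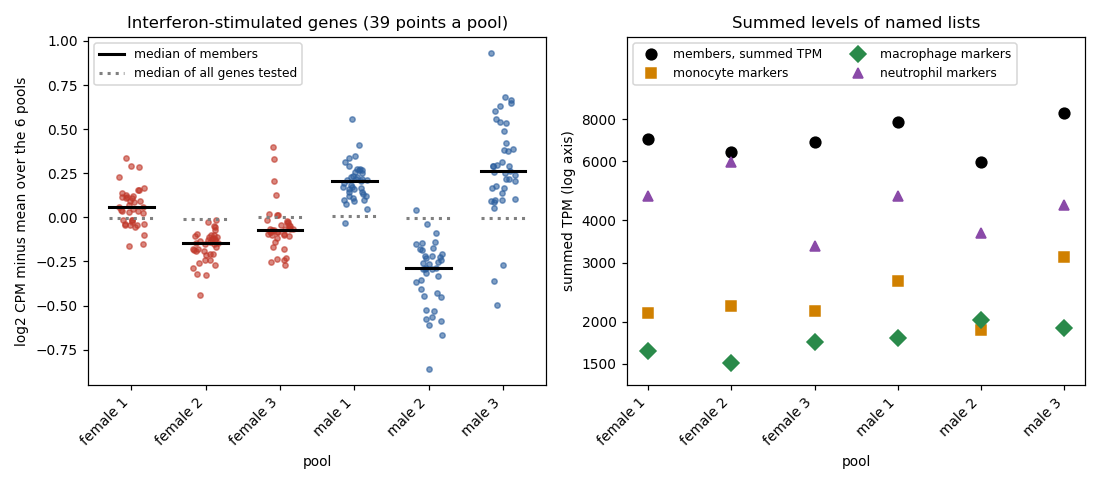
Left, deviation of each of the 39 genes in each pool in log2 CPM (points), with the median of the members (solid bar) and of all genes tested (dotted bar). Right, summed TPM on a log axis of the members and of 3 of the marker lists in each pool, where the members and the monocyte markers are both highest in male pool 3 and lowest in male pool 2.

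Of the cell type lists, only that of monocytes had the same order as the members in the male pools. Its order in the female pools differed. The other lists were of myelinating Schwann cells, fibroblasts, endothelial cells, macrophages, neutrophils, T and NK lymphocytes and B lymphocytes. They also covered plasmacytoid and other dendritic cells, skeletal muscle, erythroid cells and white adipocytes. When many lists are compared, 1 can match the order of 3 pools by chance. The 6 monocyte markers summed to 2128, 2233 and 2155 TPM in the female pools and 2640, 1889 and 3113 TPM in the male pools. The sum ranged from 2128 to 2233 TPM in females and from 1889 to 3113 TPM in males, with male pool 3 highest, male pool 1 second and male pool 2 lowest, as for the summed TPM of the members. Among the females the monocyte sum was highest in pool 2 and lowest in pool 1, whereas the summed TPM of the members was highest in pool 1 and lowest in pool 2. Of the 6 markers, 4 were highest in male pool 3 and 5 lowest in male pool 2, none was at 0, and Ccr2 went the other way, with its highest level in male pool 2. Ly6c2, the widest of them, was at 290.1, 327 and 340.1 TPM in the female pools, against 546, 222 and 802 TPM in the male pools. Macrophage markers summed to 1643, 1510 and 1748 TPM in the female pools and 1797, 2032 and 1912 TPM in the male pools, with male pool 2 highest, and neutrophil markers to 4713, 5962 and 3368 TPM in the female pools and 4725, 3683 and 4455 TPM in the male pools, with female pool 2 highest. Plasmacytoid dendritic cell markers summed to 9.03, 48.6 and 12.4 TPM in the female pools. In the male pools they summed to 20.4, 13.2 and 12.8 TPM. Of the sum in female pool 2, 36.2 TPM was Cox6a2. Siglech, their defining marker, was at 3.11 to 4.83 TPM in females and 4.33 to 4.66 TPM in males. Klk1 of the same list was at 1.496 to 1.705 TPM in females and 1.074 to 1.267 TPM in males, without overlap. Its log2 fold change was 0.45 (SE 0.22, adjusted p = 0.806, edgeR). The sexes overlapped for the other markers of this list. The part of the monocyte markers in the pool pattern was not tested, and in whole nerve more cells of a type and more RNA per cell cannot be told apart. Whether any of the 6 markers responds to interferon itself was not tested, so their order may not be separate from that of the members.

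**Figure D4:**
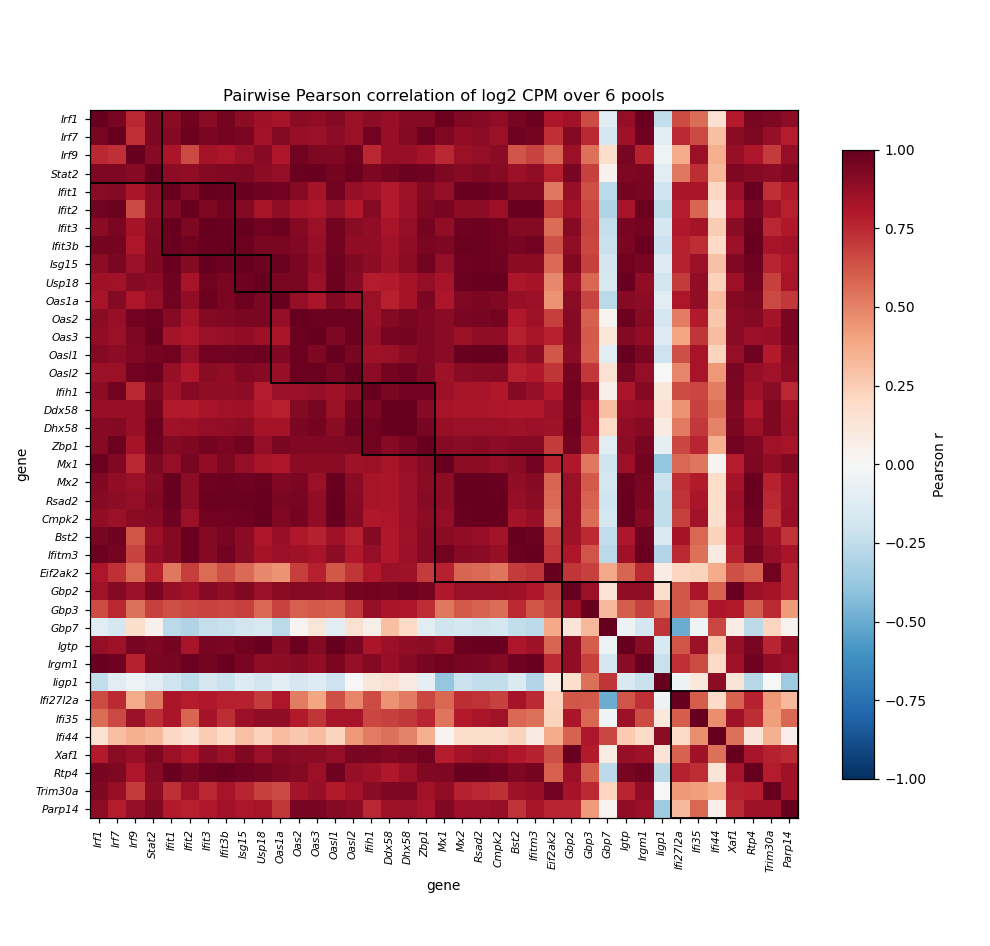
Pearson correlation of log2 CPM over the 6 pools for each pair of the 39 genes, from -1 (blue) to 1 (red), with outlined blocks for the 8 roles. Most of the square is dark red, with a median of 0.858 over 741 pairs, and the pale or blue lines are Gbp7, Iigp1 and Ifi44.

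The members varied together over the pools. The median Pearson correlation of log2 CPM over the 6 pools was 0.858 for the 741 pairs of members, and the median Spearman correlation was 0.829. The same median was -0.0014 for all pairs of the 16310 genes. Of the member pairs, 64.5% were above 0.8, against 4.17% of all pairs. These values describe 6 pools and share their libraries, so no p is given. After each gene was centred within its sex the median was 0.893, and with any 1 pool left out it was 0.808 to 0.891, lowest without male pool 2. Without female pool 2, the pool with muscle transcripts, it was 0.855. The median within the sexes was thus no lower than over all pools.

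Roles differed in how tightly they held together. The median correlation within a role was 0.974 for the IFIT genes, 0.956 for the sensors, 0.941 for the oligoadenylate synthases, 0.920 for the transcription factors and 0.885 for the direct antiviral effectors. It was 0.551 for the GTPases and 0.590 for the mixed group. With members of other roles the median was 0.8875 for the IFIT genes and for the oligoadenylate synthases. It was 0.887 for the transcription factors, 0.866 for the sensors and 0.855 for the direct antiviral effectors, not far below the values within. For the GTPases (0.740) and the mixed group (0.795) it was higher than within the role. Rsad2 and Cmpk2, which neighbour each other on chromosome 12, correlated at 0.997. The value was not particular to neighbours, since Rsad2 and Mx2, on chromosomes 12 and 16, also correlated at 0.997. So did Ifit3 and Isg15, on chromosomes 19 and 4. Against the mean of the other 38 members, Stat2 had the highest correlation, 0.977, followed by Zbp1 at 0.972. The lowest were Iigp1 at -0.058, Gbp7 at -0.024 and Ifi44 at 0.373. Iigp1 and Gbp7 correlated with each other at 0.716. Eif2ak2 followed the others at 0.722 and Ifi27l2a at 0.657.

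The one comparison between groups that the labels give is female against male. No member passed the threshold of an adjusted p of 0.1 in edgeR's quasi-likelihood test, where 10 of 16310 genes were called (0.0613%), and none passed it in DESeq2, which called 0.975% of genes, or in limma, which called 0.159%. At an unadjusted p under 0.05 edgeR had 1 member, Eif2ak2, or 1 of 39, where 6.11% of all genes fell under it. The adjusted p-values of the members were 0.806 to 0.995. Pools that did not overlap with the females lower were seen for 1 member, against 6.04% of all genes, and with the females higher for 0, against 5.16%.

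**Figure D5:**
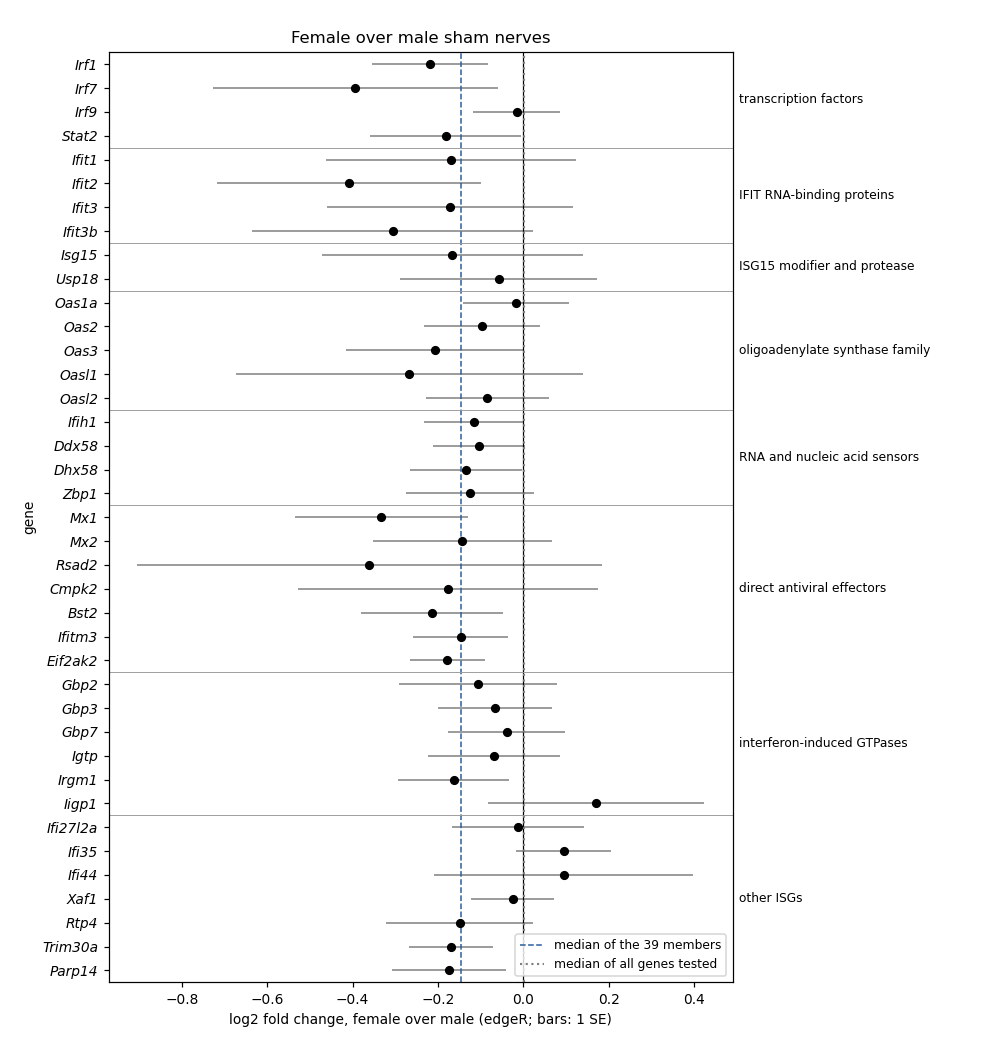
Log2 fold change of each of the 39 genes, female over male, from edgeR (points) with 1 SE either way (bars), and the medians of the members (dashed line) and of all genes tested (dotted line). Of the 39 points 36 lie left of 0, none of them passed the threshold, and the bars are longest for Rsad2, Oasl1, Cmpk2 and Irf7.

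The direction of the fold changes was nevertheless shared. The log2 fold change was below 0 for 36 members (92.3%, against 49.4% of all genes) and above 0 for Iigp1, Ifi35 and Ifi44. The median was -0.15, against 0.0016 over all genes. Since the members vary together, these 36 are not separate observations. The median was -0.01 without male pool 3, -0.09 without male pool 1 and -0.28 without male pool 2, and -0.09 without female pool 2. A difference of the members between the sexes was not detectable with 3 pools of each.

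Several symbols gathered transcripts other than the coding ones, which affects what their TPM stands for. For Mx1 11.4% of the TPM was on protein-coding transcripts and the leading transcript (32.0%) is annotated as a processed transcript. For Mx2 the share was 0% and the leading transcript (57.5%) is a polymorphic pseudogene in the annotation. Both genes are known to be defective in most laboratory mouse strains. For Oasl2 29.4% was coding, and its leading transcript (34.1%) is annotated for nonsense-mediated decay. Coding shares were 52.0% for Stat2, 55.2% for Ddx58, 56.6% for Xaf1 and 71.4% for Dhx58, and at least 77.7% for the other 32 members. With coding transcripts alone, which leave out Mx2, the median pairwise correlation was 0.792, male pool 3 was highest for 23 of 38 members and male pool 2 lowest for 32.

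The members were set beside the rest of the pathway, taken from named lists. Interferon ligands were at or near 0. Of 21 ligand genes, 15, which included 13 of the alpha interferons, had no read in any pool, where 3 counts per pool is the limit that 0 allows, or 0.0536 CPM in the shallowest library. Ifnb1 had 3, 2 and 2 read pairs in the female pools, against 3, 0 and 6 in the male pools, and Ifng had 2, 7 and 3 in the female pools, against 4, 5 and 1 in the male pools. None of the 21 passed the filter, and differences between pools were not detectable for them at this depth.

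All 6 receptor genes passed the filter and were tested. Ifnlr1, the chain particular to lambda interferons, was at 0.722, 1.18 and 0.684 TPM in the female pools, against 0.835, 0.663 and 1.03 TPM in the male pools, whereas the other 5 averaged 48.5 to 131 TPM. Ifngr1, a chain of the interferon gamma receptor, was at 121, 124 and 120.5 TPM in the female pools, against 139, 146 and 136 TPM in the male pools. Every female pool was below every male pool, as in CPM for 2 of the 6 receptors (6.04% of all genes were so ordered). Its log2 fold change was -0.24 (SE 0.088, adjusted p = 0.552, edgeR). Il10rb, shared by the lambda interferon and interleukin receptors, averaged 101.6 TPM in females and 109.7 TPM in males. Ifnar1 was at 63.3, 64.8 and 56.6 TPM in the female pools, against 63.9, 61.9 and 63.3 TPM in the male pools. In TPM this did not follow the order of the members. Ifnar2 was at 81.7, 77.0 and 75.8 TPM in the female pools, against 85.6, 80.6 and 92.8 TPM in the male pools, highest in male pool 3. In log2 CPM 5 of the 6 receptors, Ifnar1 included, were highest in male pool 3 (83.3%, against 21.6% of all genes). On that scale 4 of the 6 were lowest in female pool 3. No receptor was called, 1 of 6 had an unadjusted p under 0.05 (6.11% of all genes did), and the median log2 fold change was -0.14.

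Of 8 kinases, STATs and IRFs outside the members, none was called and 5 were below 0, with a median log2 fold change of -0.06. Stat3 averaged 99.0 TPM in females and 94.9 TPM in males, and Jak1 averaged 91.9 TPM in females and 90.2 TPM in males. Irf8, a factor of myeloid cells, was at 24.2, 29.1 and 25.6 TPM in the female pools, against 31.1, 32.5 and 33.0 TPM in the male pools. Every female pool was below every male pool (6.04% of all genes), and in CPM 1 of the 8 had the opposite order (5.16% of all genes). The log2 fold change of Irf8 was -0.28 (SE 0.10, adjusted p = 0.595, edgeR). The median SD of these 8 genes was 0.070 over the female pools and 0.11 over the male pools.

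Among 10 further sensors, adaptors and kinases of nucleic acid sensing, 8 were below 0 and none was called by edgeR. Myd88 was the highest, with means of 91.6 TPM in females and 102 TPM in males. Tlr9, an endosomal receptor for unmethylated DNA, was at 13.1, 14.2 and 13.6 TPM in the female pools, against 24.5, 17.1 and 21.0 TPM in the male pools. Every female pool was below every male pool for Tlr9, as in CPM for 4 of the 10 genes (6.04% of all genes). The log2 fold change of Tlr9 was -0.57 (SE 0.18, adjusted p = 0.416, edgeR), and its adjusted p in DESeq2 was 0.00527, past the threshold there. DESeq2 called 1 of the 10 genes, against 0.975% of all genes. Sting1, the adaptor of the DNA sensor Cgas, was at 54.9, 61.3 and 52.4 TPM in the female pools, against 64.8, 58.6 and 65.4 TPM in the male pools, with a log2 fold change of -0.17 (SE 0.084, adjusted p = 0.806, edgeR). A mixed list of 8 regulators and effectors held Socs1, Socs3, Ptpn2, Ptpn6, Pias1, Trim25, Irf2bp2 and Isg20. None of the 8 was called and 6 were below 0, and in CPM 1 had every female pool below every male pool (6.04% of all genes). Ptpn6, a phosphatase of blood cells, was at 93.5, 118 and 83.3 TPM in the female pools, against 117, 116 and 110.4 TPM in the male pools, with a log2 fold change of -0.26 (SE 0.11, adjusted p = 0.695, edgeR). Socs3 averaged 106 TPM in females and 101 TPM in males.

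A further 62 interferon-stimulated genes outside the 39 were listed, 61 were found and 59 tested. Of these, 53 were below 0 (89.8%, against 49.4% of all genes), and the median log2 fold change was -0.17. Male pool 2 was lowest for 29 (49.2%, against 84.6% of the members and 16.5% of all genes). Male pool 1 was highest for 29 (49.2%, against 12.1% of all genes) and male pool 3 for 25 (42.4%, against 21.6%). Male pool 2 lowest with male pool 1 or 3 highest held for 27 (45.8%, against 79.5% of the members and 5.61% of all genes). The SD was larger over the male pools for 54 of the 59 (91.5%, against 52.2% of all genes). In CPM every female pool was below every male pool for 8 of the 59 (6.04% of all genes). The opposite order held for 2 (5.16% of all genes). None was called by edgeR, and 6 had an unadjusted p under 0.05 (6.11% of all genes did). These were Trim12c, Slfn9, Epsti1, Slfn5, Trim34a and Ifi209, with log2 fold changes of -0.31 to -0.20 and adjusted p-values of 0.496 to 0.806 in edgeR. Trim12c had an adjusted p of 0.0843 in DESeq2, which called 1 of the 59 genes, against 0.975% of all genes. Ifitm2 and Ifitm1, paralogs of Ifitm3, averaged 1303 and 313 TPM over the 6 pools, and Trim30d, a paralog of Trim30a, averaged 62.3 TPM. The division of reads among these copies is uncertain. Cxcl10, a chemokine that interferon induces, was at 93.9, 60.1 and 56.3 TPM in the female pools, against 77.0, 36.5 and 172 TPM in the male pools, with male pool 3 highest and male pool 2 lowest.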

How the data were processed

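The authors sequenced stranded poly-A libraries of 6 nerve pools as paired ends, trimmed the reads with Trimmomatic 0.39 and estimated the level of each GENCODE transcript with Salmon, for which the submitters' notes give version 1.5.2. The deposited values are an estimated count of read pairs and a TPM for each of 140789 transcripts. The authors' TPM divides by effective length and sums to the same total in each pool. The estimated counts were deposited as they came, without scaling.

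Here both were summed by gene (54309 genes), and counts were rounded. The 16310 genes at 0.5 CPM or more in 3 or more pools were fitted as female over male by the quasi-likelihood test of edgeR 4.0.16 (robust, TMM factors, no covariate) and Benjamini-Hochberg adjustment at 0.1. A standard error is the absolute log2 fold change divided by the normal deviate of its p. Deviations and correlations use log2 CPM with a prior count of 2. DESeq2 1.42.0, limma 3.58.1 (voom, sample weights), RLE factors, other filters, transcript length offsets, a replicate block and each pool left out in turn were alternatives. The edgeR, DESeq2 and limma fits were tested on simulated counts. Fits ran in R 4.3.3 and tables were made in Python 3.11.15.

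The members and lists were chosen with earlier results of these data known. Full values are given, per role, for the 2 members of highest mean TPM and the 2 of smallest p, and for any member whose pools do not overlap. In the other lists they are given for the 2 of highest mean TPM or for any with an unadjusted p under 0.05. Values of other genes (Oasl1, Gbp7, Ifi44, Rsad2, Cmpk2, Ifnar1, Ifnar2, Cxcl10, Ly6c2, Siglech, Klk1 and Cox6a2) were chosen after they were seen. Some items of the pathway are not reported here. Gene positions are from GENCODE M39 on GRCm39, and promoters are RefSeq windows on GRCm38.p6. The Salmon version and the GENCODE release differ between sources (M29 in the study's methods, M27 in the tables). The SE and p describe the spread between pools of mice.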

Additional observations from a re-analysis of the deposited data

How the results depend on the processing

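No member was called under any alternative run. The number of genes called, 10 in edgeR, was 159 in DESeq2, 26 in limma with sample weights, 49 with no filter and 5 with the replicate block, and it was 4 to 9 with 1 pool left out. The median log2 fold change of the members was -0.15 and lay between -0.15 and -0.12 with other tools, factors, filters or length offsets, -0.11 with the replicate block, and between -0.28 (without male replicate 2) and -0.01 (without male replicate 3) with 1 pool left out. Same-numbered female and male pools correlated at -0.18, -0.13 and -0.097 in their deviations, and differently numbered ones at -0.067 to 0.204. Same-numbered pools were thus not more alike than others in these values, which cannot tell whether they were handled together. Of the 28 members with full values, 18 kept the sign of their fold change in all 13 alternatives, and 10 changed it in at least 1, in 18 values of which 8 were without male replicate 3. With 1 pool left out, the log2 fold change of these 10 ranged from -0.41 to 0.12 for Ifit1, -0.42 to 0.10 for Ifit3, -0.43 to 0.097 for Isg15, -0.25 to 0.15 for Usp18, -0.15 to 0.10 for Oas1a, -0.22 to 0.0045 for Oasl2, -0.29 to 0.032 for Gbp2, -0.0019 to 0.43 for Iigp1, -0.13 to 0.15 for Ifi27l2a and -0.13 to 0.042 for Xaf1. In limma Oas1a was at 0.030 and Iigp1 at -0.091. Adjusted p-values over these alternatives were 0.235 to 1. The count of members with the larger male SD, an alternative chosen after seeing the data, was 37 in TPM and 38 of 38 with coding transcripts. With 3 pools of each sex and members whose log2 SD over the male pools reached 0.91, small differences between the sexes are not detectable.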
